A study of Arabidopsis thaliana with 12 samples.

Results

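The 10 genes described here make aliphatic glucosinolates in Arabidopsis thaliana. They are the transcription factors MYB28 and MYB29, the methionine chain-elongation genes BCAT4, BAT5, MAM1 and MAM3, and the core-structure genes CYP79F1, CYP83A1, SOT17 and SOT18. They were chosen by name and locus code, with no measured value in the rule, though earlier results of these data were known. They are 10 of the 23916 genes in the deposited table. RNA was sequenced from whole seedlings 10 days old, grown at 22 °C under 16 h of light and 8 h of dark, with 3 libraries for each of 4 genotypes. Col was the wild type. T31A was labelled h3.3ko;HTR5 T31A and K36A was labelled h3.3ko;HTR5 K36A, so both carried a knockout of the histone variant H3.3 together with HTR5, an H3.3 gene, changed at 1 residue. The remaining genotype, efs, is a mutant of EFS, a histone methyltransferase of H3K36, and its lesion is not given in the labels. H3.3 knockout plants with unmutated HTR5 were not analysed here, so a difference of T31A or K36A from Col covers the knockout, the HTR5 copy and the residue change together. The labels leave unsaid if the 3 libraries per genotype were grown apart. The p-values thus reflect nothing but variation among these libraries, and part or all of that may be technical.

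Aliphatic glucosinolates are sulphur-rich defence compounds of the cabbage family, made from methionine. Methionine is first lengthened by a cycle that passes between the cytosol and the chloroplast. The lengthened amino acid is then turned into the glucosinolate core by cytochromes P450 and later enzymes, ending with the transfer of sulphate. MYB28, MYB29 and their relative MYB76 activate the genes of the pathway, together with MYC factors, which bind G-box sequences. A separate branch, with its own MYB factors, makes indolic glucosinolates from tryptophan.

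The stretches of 250 bases before the annotated gene starts (RefSeq, TAIR10.1) are shown for 3 genes. BAT5, CYP83A1 and SOT17 are shown because these 3 of the 10 windows held a searched motif. The motifs were the G-box CACGTG and 3 AC elements of MYB factors, which are ACCTACC as the first form, then ACCAACC as the second and lastly ACCTAAC, each sought on both strands, and no printed match overlapped another. Capitals mark the matches, and an AC element on the opposite strand stands in its reverse complement. Positions count back from the base before the gene start. Each sequence runs 5′ to 3′ on the strand of its gene.
BAT5, chr4:7210557-7210806, plus strand: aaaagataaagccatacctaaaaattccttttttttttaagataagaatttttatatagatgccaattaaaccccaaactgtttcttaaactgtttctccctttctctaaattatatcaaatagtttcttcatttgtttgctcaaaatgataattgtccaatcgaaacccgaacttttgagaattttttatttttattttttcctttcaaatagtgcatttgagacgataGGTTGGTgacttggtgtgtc
CYP83A1, chr4:7992430-7992679, minus strand: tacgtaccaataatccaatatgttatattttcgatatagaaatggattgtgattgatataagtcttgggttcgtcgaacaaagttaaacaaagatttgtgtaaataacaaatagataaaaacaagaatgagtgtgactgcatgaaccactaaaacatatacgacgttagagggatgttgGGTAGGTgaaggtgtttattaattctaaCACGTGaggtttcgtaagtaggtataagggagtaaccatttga
SOT17, chr1:6398281-6398530, plus strand: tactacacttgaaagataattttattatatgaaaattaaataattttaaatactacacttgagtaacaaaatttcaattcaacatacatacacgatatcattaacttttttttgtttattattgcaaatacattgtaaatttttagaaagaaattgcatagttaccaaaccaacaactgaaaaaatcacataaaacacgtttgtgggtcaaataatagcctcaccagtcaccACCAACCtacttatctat
BAT5 held ACCAACC at -20 to -14 and SOT17 held it at -18 to -12. CYP83A1 held ACCTACC at -71 to -65 and a G-box at -43 to -38. Of 27438 windows of this length before the genes of the reference, 6.12% held 1 of the 3 AC elements and 6.49% held a G-box.

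The reads recovered from the table numbered 17621000 to 34098031 per library. The H3.3 gene AT5G10980 differed from Col by -2.91 in T31A and -2.58 in K36A on the log2 scale, while HTR5 rose by 0.99 and 0.85. The H3.3 gene AT4G40030 differed by -0.51 and -0.72. All of these passed the test. EFS transcript did not differ beyond the test's threshold from Col in any mutant, including efs (-0.01, SE 0.12, adjusted p = 0.974), and without the lesion this level checks no label. Tests were made with limma on log2(TPM + 1), where TPM is a read level scaled to gene length and library size, over 12 libraries and 19984 genes, with calls made below an adjusted p of 0.05. Among all called genes, 58.5% were higher than Col for T31A, 71.7% for K36A and 64.4% for efs, and after scaling by median-of-ratios factors these shares were 44.6%, 47.7% and 47.9%. All 10 pathway genes were above the filter of 1 TPM in every library, at 72 to 7737 reads each.

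In T31A, 9 of the 10 genes were lower than in Col, against a background of 11.1% of all tested genes called lower. In K36A all 10 were lower, against a background of 8.9%. In efs 9 were lower, against a background of 17.4%. No member was higher than Col in any mutant, where 15.7%, 22.6% and 31.4% of all genes were. Counted by libraries that did not overlap, 9, 10 and 9 members lay below Col (backgrounds 16.5%, 11.9% and 19.5%) and none lay above it (backgrounds 23.3%, 27.7% and 35.2%). The median log2 difference of the 10 genes was -1.08 for T31A, -0.98 for K36A and -1.59 for efs, beside 0.04, 0.09 and 0.12 over all tested genes. In these whole seedlings, fewer cells that make glucosinolates and less RNA per cell cannot be told apart. All 3 mutants were compared with the same Col libraries. A called decrease of at least 2-fold was reached by 5 genes in T31A, 5 in K36A and 9 in efs, against backgrounds of 0.846%, 0.656% and 3.1% of all tested genes.

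**Figure D1:**
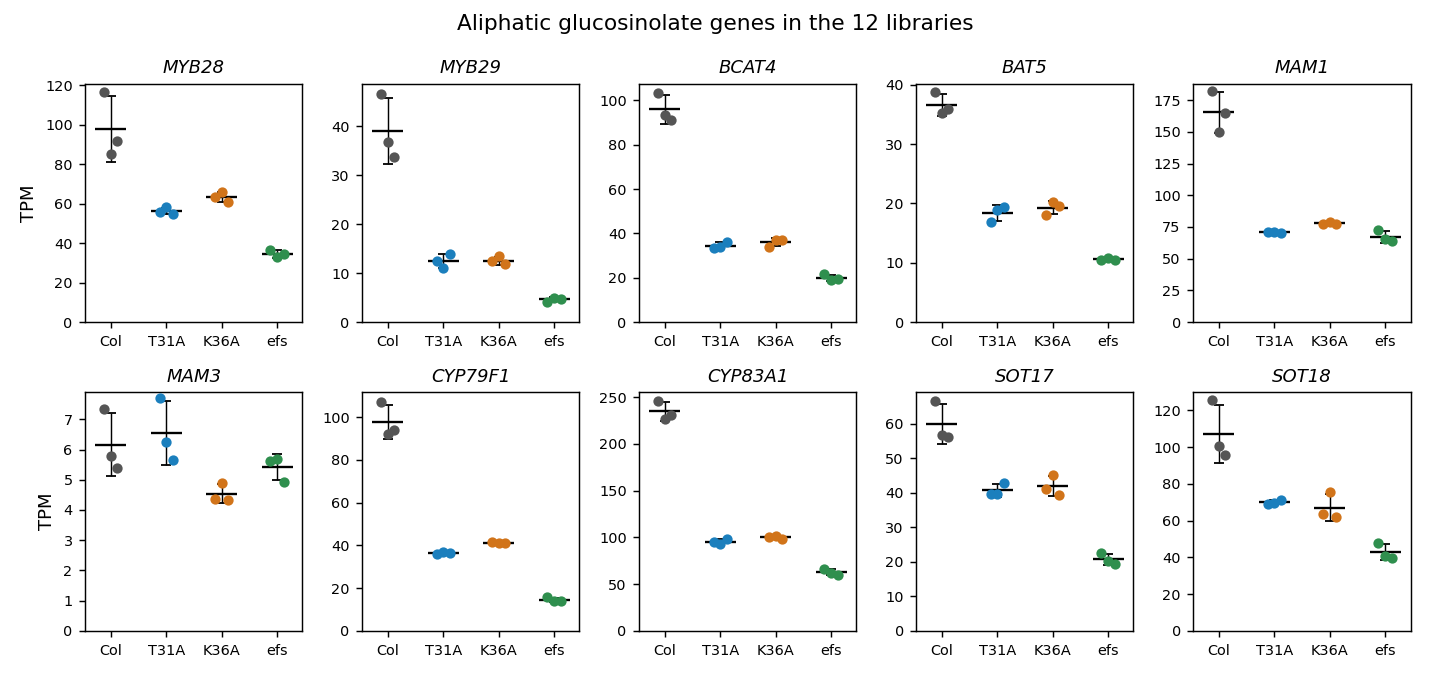
TPM of each of the 10 genes (vertical axes, each from 0) in the 3 libraries of Col, T31A, K36A and efs; points are libraries, lines are means and bars are SD. In 9 genes every Col library lay above every mutant library, while MAM3 overlapped between Col, T31A and efs.

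Markers of seedling tissues, all above 0 in every library, also moved with genotype. The summed level of 14 green-tissue genes ran over 56512 to 62495 TPM for Col, 53688 to 55714 for T31A, 50134 to 51134 for K36A and 47788 to 49220 for efs. Of these markers, 6 were lower than Col for T31A, 10 for K36A and 11 for efs, with none higher, where 11.1%, 8.9% and 17.4% of all tested genes were lower. After quantile scaling 3, 2 and 6 of these markers were lower, and with median-of-ratios factors 6, 10 and 12 were. Quantile scaling called 5255, 5598 and 8939 of the 19984 tested genes in T31A, K36A and efs. Of those genes 47.3%, 46.9% and 51.1% were higher than Col, so the shares given above do not apply to it. The green-tissue sum lay below Col in every mutant library, by a smaller factor than most of the 10 glucosinolate genes. The sum of 14 root genes ran over 2636 to 2853 TPM for Col, 2209 to 2304 for T31A, 2816 to 2919 for K36A and 2689 to 2760 for efs. This sum was mostly PYK10, a root beta-glucosidase gene with a Col mean of 2497 TPM. The other 13 root genes summed to 192 to 266 TPM for Col, 187 to 204 for T31A, 293 to 317 for K36A and 235 to 245 for efs, so that only K36A lay apart from Col, above it. Of 13 tested root markers, 5 were lower and 1 higher in T31A, none lower and 8 higher in K36A, and 1 lower and 4 higher in efs. The root medians were -0.23, 0.48 and 0.25, and in K36A the differences reached 1.09 in CASP5 and 0.91 in EXPA7. With median-of-ratios factors 6 root markers were higher in K36A and 2 in efs. The sum of 7 vascular genes ran over 357 to 407 TPM for Col, 327 to 348 for T31A, 425 to 440 for K36A and 402 to 413 for efs. Every vascular sum of T31A lay below Col and every one of K36A above it, while efs overlapped Col. Of the 7 vascular markers, 1 was lower in T31A, 3 were higher in K36A and 1 was higher in efs, and with median-of-ratios factors 4 were lower in T31A, 1 was lower and 2 were higher in K36A, and none was called in efs. Without those factors the backgrounds of genes called higher were 15.7%, 22.6% and 31.4%. With them 5431, 5797 and 8905 of the 19984 tested genes were called, and 44.6%, 47.7% and 47.9% of those were higher. The part of these tissues in the glucosinolate results was not tested.

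MYB28 (AT5G61420, chr5:24689069-24691187, minus strand), the main activator of the aliphatic pathway, stood at 117, 85.2 and 91.7 TPM in Col. T31A had 55.9, 58.1 and 54.9 TPM, K36A had 63.3, 66.1 and 61.1, and efs had 36.6, 32.8 and 34.4. Every mutant library lay below every Col library, and efs lay below both H3.3 mutants. The log2 difference from Col was -0.77 in T31A (SE 0.09, adjusted p = 3.2e-05), -0.60 in K36A (adjusted p = 3.0e-04) and -1.46 in efs (adjusted p = 1.5e-08). The efs mean was 35.4% of the Col mean.

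MYB29 (AT5G07690, chr5:2446669-2448584, plus strand), the second activator of the same genes, stood at 46.6, 36.8 and 33.8 TPM in Col. T31A had 12.5, 11 and 13.8 TPM, K36A had 12.5, 13.4 and 11.8, and efs had 4.18, 5.02 and 4.72. The H3.3 mutants overlapped each other, lay below Col and lay above efs. Its log2 difference from Col was -1.57 in T31A (SE 0.12, adjusted p = 2.5e-07), -1.55 in K36A (adjusted p = 5.0e-07) and -2.82 in efs (adjusted p = 1.5e-10). The efs mean was 11.9% of the Col mean, the lowest share among the 10 genes.

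The 2 regulators fell by unequal amounts. The log2 ratio of MYB29 to MYB28 within a library had a Col mean of -1.30 ± 0.11 (SD, n = 3), a T31A mean of -2.10 ± 0.19, a K36A mean of -2.25 ± 0.03 and an efs mean of -2.66 ± 0.19. The 4 genotypes differed in it by an exact permutation test over all 15400 partitions of the libraries (p = 2.6e-04, adjusted over 5 ratios 6.5e-04), where the smallest p possible was 6.5e-05. T31A and K36A overlapped in this ratio, and efs lay below both.

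BCAT4 (AT3G19710, chr3:6846969-6849582, minus strand), the aminotransferase that opens chain elongation, stood at 103, 93.5 and 91 TPM in Col. T31A had 33.5, 33.7 and 36.3 TPM, K36A had 34, 36.8 and 37.2, and efs had 21.6, 19 and 19.5. T31A and K36A overlapped and lay between Col and efs. Against Col the log2 difference was -1.45 in T31A (SE 0.07, adjusted p = 5.8e-09), -1.39 in K36A (adjusted p = 2.4e-08) and -2.20 in efs (adjusted p = 1.6e-11). BCAT4 overlaps IKU2 on the opposite strand, and IKU2 was at no more than 0.158 TPM in any library.

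BAT5 (AT4G12030, chr4:7210807-7213376, plus strand), the chloroplast carrier of the keto acids of elongation, stood at 38.8, 35.2 and 35.9 TPM in Col. T31A had 16.9, 18.9 and 19.4 TPM, K36A had 18, 20.2 and 19.6, and efs had 10.5, 10.8 and 10.5. The order was again Col above the overlapping H3.3 mutants above efs. The log2 differences from Col were -0.96 in T31A, -0.89 in K36A and -1.70 in efs (SE 0.08 each), with adjusted p of 4.7e-07, 1.7e-06 and 3.1e-10.

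MAM1 (AT5G23010, chr5:7703041-7706973, plus strand), the synthase that condenses the short-chain keto acids, stood at 182, 150 and 165 TPM in Col. T31A had 71.2, 70.8 and 70.5 TPM, K36A had 77.4, 78.7 and 77.3, and efs had 72.3, 65.1 and 63.8. All mutant libraries lay below Col, and here efs overlapped T31A. The log2 difference from Col was -1.21 in T31A (SE 0.07, adjusted p = 2.7e-08), -1.08 in K36A (adjusted p = 2.0e-07) and -1.29 in efs (adjusted p = 3.2e-09). The T31A minus efs difference was 0.08 (95% interval -0.07 to 0.23, adjusted p = 0.417).

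MAM3 (AT5G23020, chr5:7718118-7721866, plus strand), named IMS2 in the reference, is the related synthase that also makes long chains. Col had 7.33, 5.78 and 5.38 TPM, T31A had 7.72, 6.24 and 5.66, K36A had 4.38, 4.90 and 4.33, and efs had 5.64, 5.68 and 4.92. Col, T31A and efs overlapped, and K36A lay below all the others. Its log2 difference from Col was 0.07 in T31A (SE 0.12, interval -0.19 to 0.34, adjusted p = 0.702) and -0.15 in efs (interval -0.42 to 0.11, adjusted p = 0.328). In K36A it was -0.36 (adjusted p = 0.0382), a call lost without Col replicate 1 (adjusted p = 0.125), Col replicate 2 (0.0547), K36A replicate 1 (0.101) or K36A replicate 3 (0.0981). That call was also lost with no filter on low values (0.0517) and with only the 6 libraries of both genotypes (0.0749).

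MAM1 and MAM3 are neighbours, 11144 bases apart, and their coding sequences are 78.9% identical with no identical run over 30 bases. The log2 ratio of MAM3 to MAM1 had a Col mean of -4.54 ± 0.14, a T31A mean of -3.26 ± 0.19, a K36A mean of -3.83 ± 0.07 and an efs mean of -3.41 ± 0.09 (SD, n = 3). It differed between the genotypes by the same exact permutation test (p = 1.9e-04, adjusted 6.5e-04). Every mutant library lay above every Col library in this ratio, and T31A and efs overlapped.

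CYP79F1 (AT1G16410, chr1:5608682-5612064, plus strand), the P450 that turns the lengthened methionines into aldoximes, stood at 107, 92.3 and 93.9 TPM in Col. T31A had 36, 36.8 and 36.4 TPM, K36A had 41.4, 41.2 and 41, and efs had 15.8, 13.8 and 14.1. No groups overlapped. Against Col the log2 difference was -1.40 in T31A (SE 0.07, adjusted p = 6.0e-09), -1.22 in K36A (adjusted p = 4.9e-08) and -2.67 in efs (adjusted p = 2.1e-12). CYP79F1 and its neighbour CYP79F2 have coding sequences 90.7% identical with an identical run of 100 bases, and how reads shared by them were counted is not given, so their separate values are uncertain.

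CYP83A1 (AT4G13770, chr4:7990429-7992429, minus strand), the P450 of the next step, stood at 246, 227 and 231 TPM in Col. T31A had 95, 92.6 and 98.2 TPM, K36A had 101, 102 and 98.4, and efs had 66.6, 61.4 and 60.2. No groups overlapped, though the highest T31A library and the lowest K36A library were close. The log2 differences from Col were -1.29 in T31A, -1.22 in K36A and -1.89 in efs (SE 0.06 each), with adjusted p of 2.5e-09, 1.3e-08 and 1.1e-11.

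SOT17 (AT1G18590, chr1:6398531-6400029, plus strand), 1 of the sulphotransferases of the last core step, stood at 66.7, 56.9 and 56.3 TPM in Col. T31A had 39.7, 39.6 and 42.9 TPM, K36A had 41.2, 45.1 and 39.5, and efs had 22.6, 20.2 and 19.5. The H3.3 mutants overlapped between Col and efs. The log2 difference from Col was -0.54 in T31A (SE 0.08, adjusted p = 2.4e-04), -0.50 in K36A (adjusted p = 4.5e-04) and -1.49 in efs (adjusted p = 3.2e-09).

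SOT18 (AT1G74090, chr1:27862814-27864193, plus strand), the sulphotransferase of the same step, stood at 125, 100 and 95.7 TPM in Col. T31A had 68.9, 69.5 and 71.3 TPM, K36A had 63.7, 75.6 and 61.8, and efs had 47.8, 40.7 and 39.7. The pattern was that of SOT17, with the H3.3 mutants overlapping between Col and efs. Its log2 difference from Col was -0.60 in T31A (SE 0.10, adjusted p = 6.8e-04), -0.66 in K36A (adjusted p = 3.1e-04) and -1.30 in efs (adjusted p = 1.5e-07). SOT18 overlaps AT1G74088 on the same strand, whose mean was 4.4 to 5.87 TPM by genotype. The log2 ratio of SOT17 to SOT18 had a Col mean of -0.82 ± 0.07, a T31A mean of -0.76 ± 0.04, a K36A mean of -0.66 ± 0.06 and an efs mean of -1.01 ± 0.04 (SD, n = 3). It differed between genotypes (exact permutation test, p = 7.1e-04, adjusted 8.9e-04), and the efs libraries lay below all others.

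**Figure D2:**
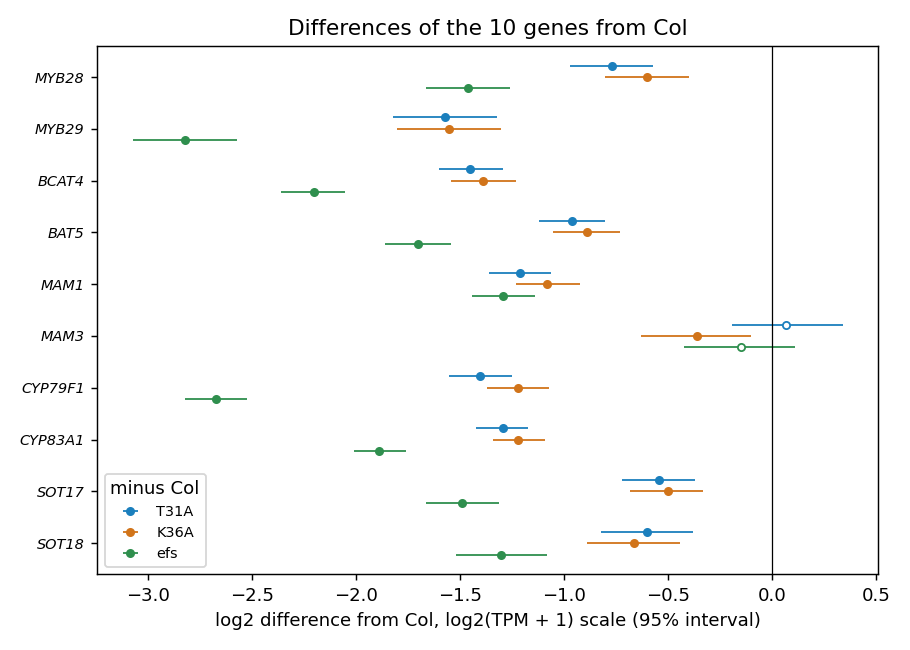
Log2 difference from Col (horizontal axis, log2(TPM + 1) scale) of the 10 genes in T31A, K36A and efs, with 95% intervals; filled points passed the test and open points did not. CYP79F1 at -2.67 and MYB29 at -2.82 lay farthest to the left in efs, and MAM3 lay nearest to 0.

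Between T31A and K36A, 1 member was called, against backgrounds of 10.2% of all genes called higher in T31A and 18% called lower. MAM3 was higher in T31A by 0.44 (SE 0.12, interval 0.17 to 0.70, adjusted p = 0.0166). That call was lost without T31A replicate 1 (adjusted p = 0.0915), K36A replicate 1 (0.055) or K36A replicate 3 (0.0501). The other 9 genes differed by -0.17 to 0.06. Their 95% intervals reached no lower than -0.37, in MYB28, and no higher than 0.29, in SOT18. In 4 of the 9, MYB28, MAM1, CYP79F1 and CYP83A1, every T31A library lay below every K36A library, where 28.2% of all genes did, and MAM3 lay above, where 16.5% did. Fitted on the 6 libraries of these genotypes alone, MYB28 (-0.17, adjusted p = 0.0426) and CYP79F1 (-0.17, adjusted p = 0.0333) were called lower in T31A. These 2 of 10 members lay near the 18% of all genes called lower in the fit on 12 libraries.

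Against efs, 8 genes were higher in T31A (background 16.7%) and 9 in K36A (background 20%). The median difference was 0.72 for T31A minus efs and 0.81 for K36A minus efs, beside -0.05 and -0.00 over all genes. The widest were CYP79F1, higher by 1.27 in T31A and 1.44 in K36A, and MYB29, higher by 1.25 and 1.27. Counted by libraries that did not overlap, 8 genes lay above efs in T31A and none below it (backgrounds 23.5% and 33.3%), and 9 lay above it in K36A and 1, MAM3, below it (backgrounds 26.3% and 25%). MAM3 was not called in either comparison. MAM1 was called in K36A minus efs (0.21, adjusted p = 0.0301). That call was lost in 5 of 6 fits that each left out 1 library, the exception being efs replicate 1, with an adjusted p of up to 0.119, and with a constant prior variance (0.0525).

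The enzyme genes were also set against MYB28 within each library. The log2 ratio of CYP79F1 to MYB28 had a Col mean of 0.01 ± 0.12, a T31A mean of -0.61 ± 0.04, a K36A mean of -0.61 ± 0.05 and an efs mean of -1.20 ± 0.03 (SD, n = 3; exact permutation p = 6.5e-04, adjusted 8.9e-04). It overlapped between the H3.3 mutants and was lowest in efs. The log2 ratio of BCAT4 to MYB28 had a Col mean of -0.02 ± 0.15, a T31A mean of -0.69 ± 0.10, a K36A mean of -0.80 ± 0.09 and an efs mean of -0.76 ± 0.03 (SD, n = 3; exact permutation p = 0.00552, adjusted 0.00552). For BCAT4 all 3 mutants overlapped one another and lay below Col.

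**Figure D3:**
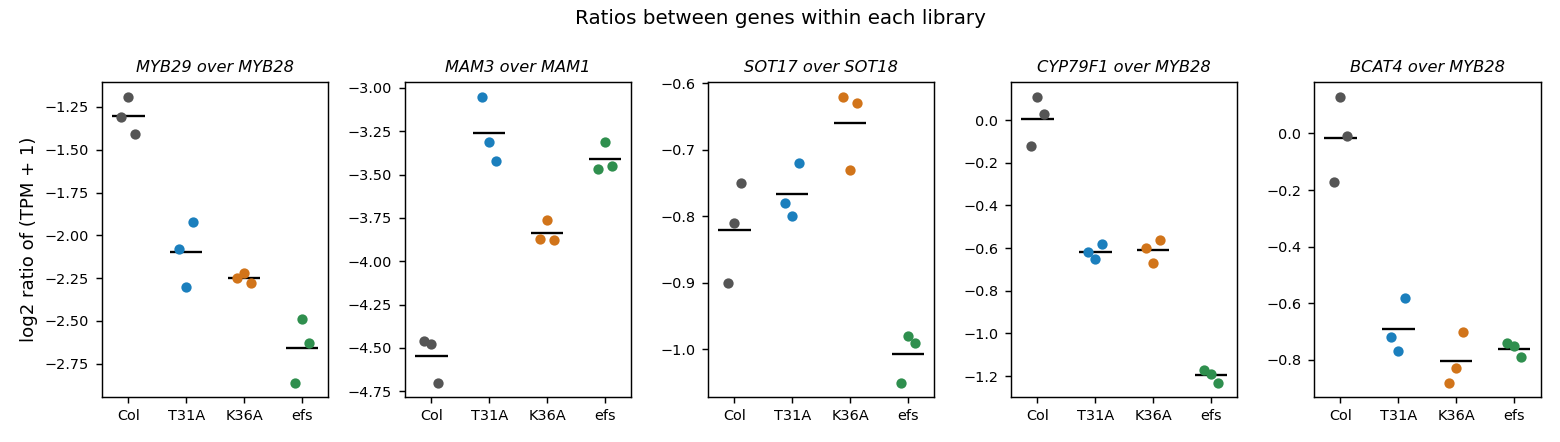
Log2 ratio of 2 genes within each library (vertical axes, ratio of TPM + 1, not from 0) for 5 pairs in 4 genotypes; points are libraries and lines are means. MYB29 over MYB28 fell from a mean of -1.30 in Col to -2.66 in efs, while MAM3 over MAM1 was highest in T31A at -3.26.

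TPM in the deposited table divides by the span of a gene with its introns. Levels of different genes were therefore compared as exon-based RPKM, reads scaled to exon length and to library size. The order of genes depends on the length used, and in the deposited TPM CYP83A1 (Col mean 235) stood above MAM1 (166). Whether reads in introns were counted is not given. On this RPKM scale MAM1 had the highest level in Col, 141 ± 10.8 (SD, n = 3), followed by CYP83A1 at 109 ± 2.25 and BCAT4 at 76.9 ± 3.87. SOT18 (47.6 ± 6.16), MYB28 (46.5 ± 6.84) and CYP79F1 (44.9 ± 2.73) followed, and these 3 did not differ beyond their spread. The annotated exons of CYP79F1 cover 3272 of its 3383 bases, against a coding sequence of 1617 bases. Its level and rank depend on that annotation and on how reads shared with CYP79F2 were counted. SOT17 was at 26.7 ± 2.07, and MYB29 (19.2 ± 2.92) and BAT5 (19 ± 0.575) did not differ beyond their spread. MAM3 was lowest in Col, at 5.61 ± 0.832. In efs MAM1 still had the highest exon-based level, 56.8 ± 4.18, while CYP79F1 was at 6.64 ± 0.509 and MYB29, now the lowest, was at 2.27 ± 0.204. MAM3 was at 4.9 ± 0.413 in efs, above every MYB29 library there, whereas in Col every MYB29 library was above it.

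The rest of the aliphatic pathway was read from a list of 21 other genes, of which 19 were in the table and 18 were tested. Of the 18, 14 were lower in T31A, 14 in K36A and 16 in efs, where 11.1%, 8.9% and 17.4% of all tested genes were. The median log2 difference was -0.47, -0.42 and -1.11, smaller in size than that of the 10 genes in each mutant. None was higher in T31A or efs, and 2 were higher in K36A, where 22.6% of all genes were. GSTF11 and AOP2 were not analysed here, and AOP3 was below the filter.

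IPMI1, a subunit of the isomerase of chain elongation, was at 115 ± 19.8 TPM in Col, with T31A at 55.1 ± 2.6, K36A at 44.5 ± 5.18 and efs at 24.4 ± 1.64 (SD, n = 3). Its log2 differences were -1.04, -1.35 and -2.18, and IMD1, the dehydrogenase after it, changed by -0.84, -0.95 and -1.44. AT2G31790, which has no symbol in the reference, was lower in all 3 mutants (-0.58, -0.39 and -1.34). GSTU20, a glutathione transferase placed in the core pathway, had Col at 212 ± 18.1 TPM, T31A at 208 ± 2.76, K36A at 191 ± 1.4 and efs at 73.6 ± 1.56. It fell by 1.51 in efs (adjusted p = 1.4e-10), while the T31A value was -0.03 (adjusted p = 0.803) and the K36A value -0.15 (adjusted p = 0.0803), which was called with median-of-ratios factors (-0.25, adjusted p = 0.021). The 2 genes higher in K36A were FMO GS-OX2 (0.31, adjusted p = 0.0276) and FMO GS-OX4 (0.65, adjusted p = 1.3e-05), flavin monooxygenases that oxidise the side chain. With median-of-ratios factors the FMO GS-OX2 call in K36A was lost (0.21, adjusted p = 0.113). FMO GS-OX2 was lower in T31A (-0.57) and efs (-0.70), and FMO GS-OX4 was not called in either (-0.15 and 0.14).

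The 2 genes of sulphate-donor synthesis, APK1 and APK2, kinases that make the donor used by SOT17 and SOT18, were lower in all 3 mutants. The APK1 differences were -0.40 for T31A, -0.32 for K36A and -0.63 for efs, and those of APK2 -0.33, -0.54 and -0.60. Of 6 tested upstream regulators, 2 were lower for T31A, 1 for K36A and 2 for efs, and 1 was higher in efs. Without other scaling the backgrounds of genes called lower were 11.1%, 8.9% and 17.4%, and that of genes called higher in efs was 31.4%. With 6 genes the K36A and efs counts lay near these shares. With median-of-ratios factors 3 regulators were lower in T31A and 3 in efs. That scaling called 5431 of the 19984 tested genes in T31A and 8905 in efs, and 44.6% and 47.9% of those were higher. MYC4, a partner of the MYB factors, was at -0.25 in T31A (adjusted p = 0.0561, and -0.30 with 0.0207 under median-of-ratios factors), -0.44 in K36A (adjusted p = 0.00238) and -1.0 in efs (adjusted p = 6.0e-07). SDI1, a repressor induced by sulphur shortage, was lower in T31A (-0.82, adjusted p = 2.2e-04), and its values of -0.01 in K36A and -0.26 in efs were not called, though efs was with median-of-ratios factors (-0.36, adjusted p = 0.0348). AT1G04770 was lower in T31A (-0.54) and efs (-1.22) and at 0.09 in K36A (adjusted p = 0.292). IQD1, a calmodulin-binding protein, was higher in efs by 0.67 (adjusted p = 2.2e-04). MYC2 was not analysed here.

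Of the 10 genes of the indolic branch, 5 were higher and 1 lower in T31A, 5 higher and 1 lower in K36A, and 4 higher and 2 lower in efs. Over all tested genes 15.7%, 22.6% and 31.4% were higher and 11.1%, 8.9% and 17.4% lower, and the efs counts lay near those shares. With median-of-ratios factors 5431, 5797 and 8905 of the 19984 tested genes were called, and 44.6%, 47.7% and 47.9% of those were higher. Indolic genes called higher with these factors were 4 in T31A, 4 in K36A and 3 in efs. The medians were 0.28, 0.33 and 0.23, beside 0.04, 0.09 and 0.12 over all tested genes. CYP81F2, a P450 that modifies indolic glucosinolates, was at 1.98 ± 0.398 TPM in Col, with T31A at 20.4 ± 0.654, K36A at 4.46 ± 0.943 and efs at 7.86 ± 0.931 (SD, n = 3). It rose by 2.86, 0.87 and 1.58 on the log2 scale (adjusted p = 3.2e-09, 3.0e-04 and 3.0e-07). CYP79B2, which makes the indolic aldoxime, rose by 0.42, 0.51 and 0.28, and CYP83B1, its next step, by 0.42, 0.36 and 0.33. With median-of-ratios factors the calls of CYP83B1 in K36A (0.25, adjusted p = 0.0565) and efs (0.22, adjusted p = 0.0657) were lost. CYP79B3, the close relative of CYP79B2, was lower in T31A (-0.31) and higher in K36A (0.38) and efs (0.35). GSTF9, a glutathione transferase, was at -0.11 in T31A (adjusted p = 0.23), -0.29 in K36A and -0.66 in efs. The indolic regulators MYB34 and MYB122 were not called in any mutant, and MYB51 was called in K36A (0.34, adjusted p = 0.0106).

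**Figure D4:**
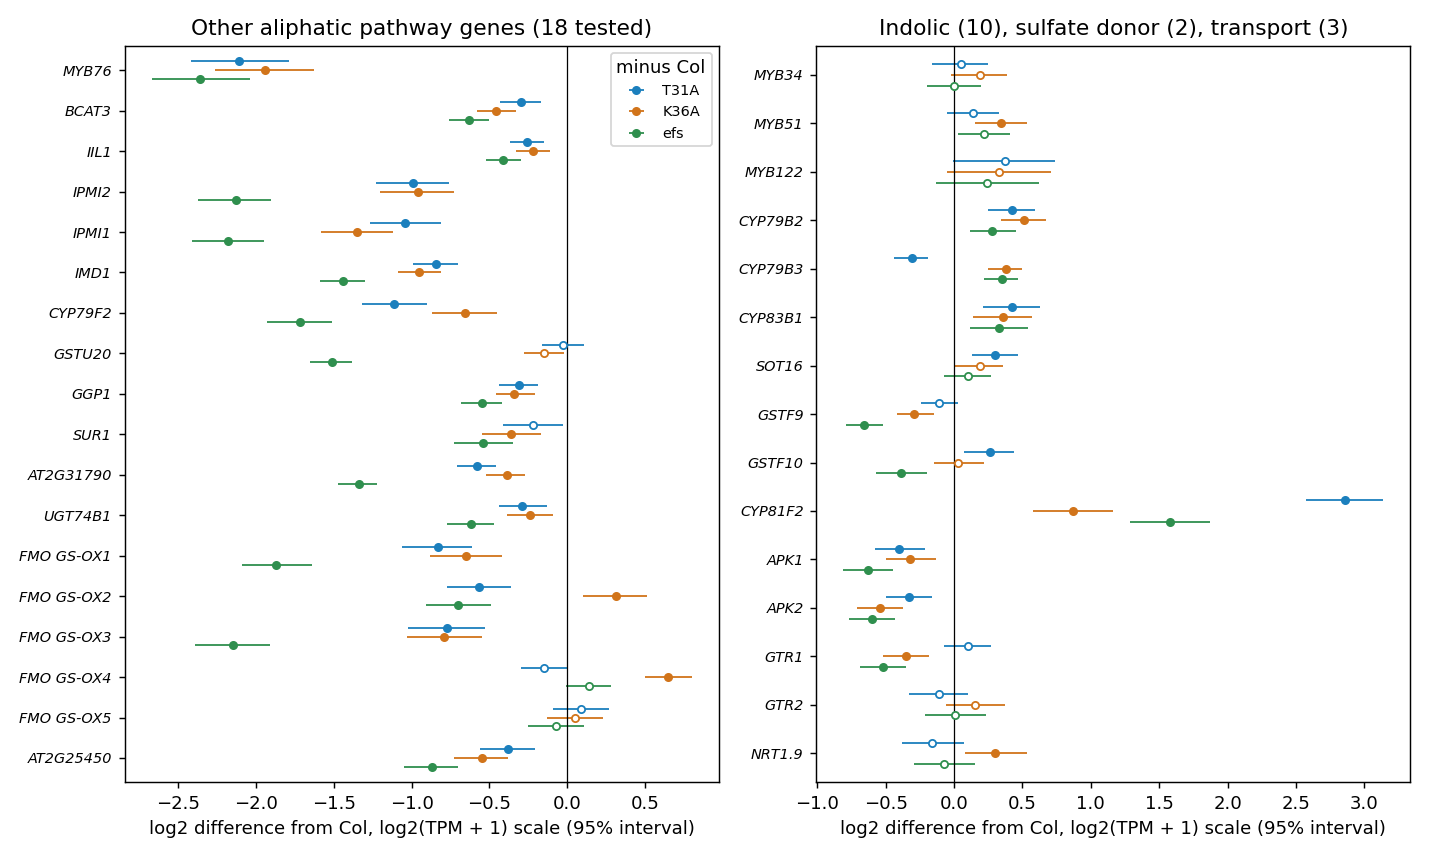
Log2 difference from Col (horizontal axes, log2(TPM + 1) scale, 95% intervals) of 18 other aliphatic genes (left) and of 10 indolic, 2 sulphate-donor and 3 transport genes (right); filled points passed the test and open points did not. Most aliphatic genes lay left of 0, and CYP81F2 lay farthest to the right, at 2.86 in T31A.

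Genes that move or break down glucosinolates were read from 2 further lists. Of the 3 transporters, GTR1 was lower in K36A (-0.35) and efs (-0.52), GTR2 was not called, and NRT1.9 was called higher in K36A (0.30, adjusted p = 0.0403), but not when scaled by median-of-ratios factors (0.20, adjusted p = 0.123). Of 9 tested breakdown genes, 4 were lower and 2 higher in T31A, 2 lower and 3 higher in K36A, and 2 lower and 3 higher in efs. The shares of all tested genes were 11.1%, 8.9% and 17.4% lower and 15.7%, 22.6% and 31.4% higher, and the efs counts lay near them. With median-of-ratios factors the breakdown counts were 5 lower and 2 higher in T31A, 4 lower and 2 higher in K36A, and 2 lower and 2 higher in efs. The shares above do not apply to that scaling. It called 5431, 5797 and 8905 of the 19984 tested genes, and 44.6%, 47.7% and 47.9% of those were higher. ESM1, which acts against nitrile formation, was lower in T31A (-0.96, adjusted p = 1.0e-06) and in efs (-2.32, adjusted p = 3.2e-11), with -0.14 in K36A (adjusted p = 0.197, and -0.24 with 0.037 under median-of-ratios factors). ESP, which directs breakdown to nitriles, was higher in K36A by 1.44 (adjusted p = 2.3e-07) and in efs by 0.28 (adjusted p = 0.0282, lost with median-of-ratios factors at 0.19 and 0.155), with 0.06 in T31A (adjusted p = 0.693). The myrosinase gene TGG1 was lower in K36A (-0.40) and efs (-0.44) and at -0.21 in T31A (adjusted p = 0.105). The T31A value was called with median-of-ratios factors (-0.27, adjusted p = 0.0376), and the K36A call was lost after quantile scaling. BGLU30, a beta-glucosidase gene, was higher in all 3 mutants (0.75, 0.68 and 0.78).

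The 10 genes lie on 4 chromosomes. The protein-coding genes next to them numbered 18 apart from the members, of which 14 were tested, a comparison chosen after the data were seen. Of these, 4 were lower for T31A, 4 for K36A and 3 for efs, and 3, 2 and 3 were higher, with medians of -0.09, -0.00 and 0.07. Beside backgrounds of 11.1%, 8.9% and 17.4% lower and 15.7%, 22.6% and 31.4% higher, the efs counts of neighbours lay near the lower share and under the higher one. Some neighbours were themselves of the pathway, and MYB76 and CYP79F2 are among those counted lower in every mutant. Apart from MYB76 and CYP79F2, the lower neighbours were NAC100 and TET12 in T31A, ARC5 and WRKY19 in K36A, and ARC5 in efs. MYB76, 1442 bases from MYB29, was at 6.45 ± 1.1 TPM in Col, with T31A at 0.728 ± 0.261, K36A at 0.928 ± 0.146 and efs at 0.447 ± 0.104 (SD, n = 3), and it was lower in each (-2.11, -1.94 and -2.36). The mutant means of MYB76 were under the filter, which it passed mainly through Col. CYP79F2, 1183 bases from CYP79F1, was lower in each as well (-1.11, -0.66 and -1.72). SOT16, the indolic sulphotransferase 151 bases from SOT18, was higher in T31A (0.30, adjusted p = 0.0128), with 0.19 in K36A (adjusted p = 0.0913) and 0.10 in efs (adjusted p = 0.316). The SOT16 and SOT18 coding sequences are 77.8% identical.

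**Figure D5:**
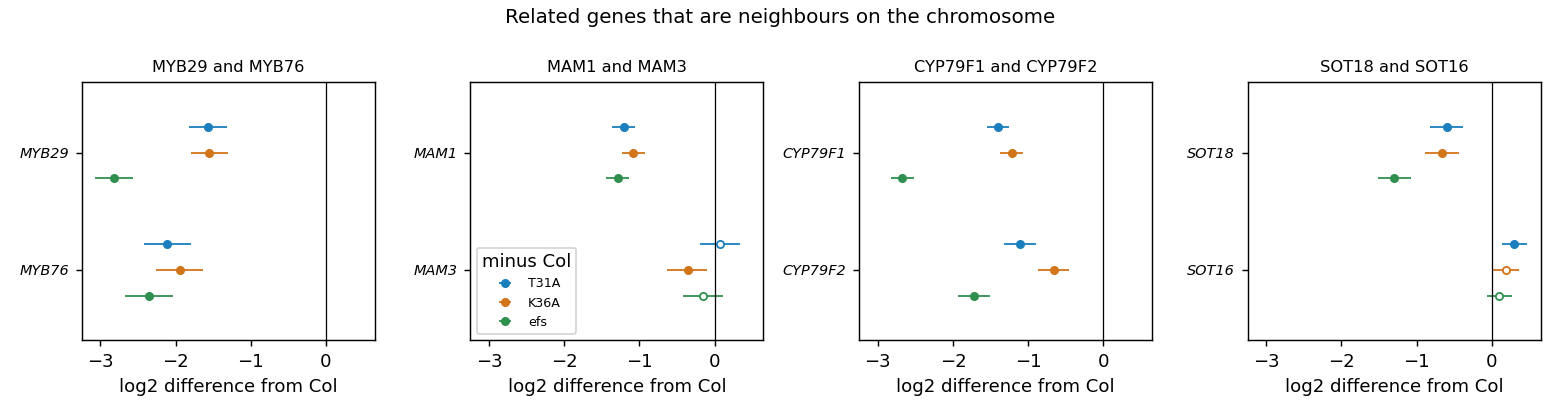
Log2 difference from Col (horizontal axes, log2(TPM + 1) scale, 95% intervals) of 4 pairs of related genes that lie next to each other; filled points passed the test and open points did not. MYB29 and MYB76 both lay left of 0, as did CYP79F1 and CYP79F2, while MAM3 and SOT16 lay nearer to 0 than MAM1 and SOT18.

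The 8 protein-coding genes outside the members and the aliphatic list whose levels followed the mean of the 10 genes most closely were AT1G05540, AT1G69523, AT2G34620, AK3, AT4G18810, PTAC16, AT1G19715 and SVP. Their Pearson correlations with that mean over 12 libraries ran from 0.975 to 0.987, as a description, since the 12 points share 4 genotypes. AK3, an aspartate kinase gene, was at 31.1 ± 1.33 TPM in Col, with T31A at 13.8 ± 0.644, K36A at 13.6 ± 0.728 and efs at 6.07 ± 0.0615 (SD, n = 3). Its log2 differences, -1.12, -1.14 and -2.18, lay within the range of the members. SVP, a MADS-box repressor of flowering, was lower by smaller amounts (-0.52, -0.43 and -0.90). Among the 10 genes themselves this correlation was 0.912 to 0.990 for 9 and 0.375 for MAM3. Each of these 10 genes is part of the mean, which raises its correlation, so these values are not comparable with those of the outside genes.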

How the data were processed

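RNA-seq libraries of 4 genotypes, 3 each, were analysed. Groups and replicate numbers came from the labels. Per the submitters' processing notes the build was TAIR10 and the tools included DESeq2 1.26.0, HISAT2 2.1.10 and fastp 0.20.1, with no counting tool named. Columns of the deposited table are headed as gene counts, but all have 1 shared sum and most values are not whole, and they were treated as TPM made by the authors. TPM multiplied by the gene span of TAIR10.1 was a whole multiple of 1 unit per library (tolerance 0.001) in 100.0% of genes under 50 reads, for the 23745 locus codes found in that reference; the other 171 codes have no span. The length behind the TPM was thus the span with introns.

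The 19984 genes that reached 1 TPM in 3 or more libraries were tested. The fit was made on log2(TPM + 1) with limma 3.58.1 (R 4.3.3, mean-dependent prior variance, 4 groups, 6 contrasts, Benjamini-Hochberg over all tested genes, two-sided); this scale understates changes of low genes. The fit was tested on simulated T31A minus Col differences. It recovered 56% of changes of 0.5 and 95% of changes of 1 on the log2 scale, with 4.43% of calls false. The simulation changed 100 genes at each size, whereas 5347 genes were called for T31A minus Col, so rates in the data may differ. A gene not called may thus still have changed by 0.5 or less, and at times by more. Exact permutation tests of ratios used the F statistic over 15400 partitions. Promoter windows, neighbours and coding-sequence identity came from TAIR10.1 (Biopython 1.88); protein identity was not run.

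Besides the 10 members, named genes were up to 4 of each list with the smallest adjusted p against Col and most genes called opposite to the members. Related or neighbouring genes and the 8 most alike genes were also named. Called higher but not described above were GSTF10 of the indolic list in T31A (0.26) and 3 breakdown genes. These were PEN2 in T31A (0.23), NSP5 in K36A (0.21) and BGLU28 in efs (0.67). The GSTF10 and NSP5 calls were lost with median-of-ratios factors. Members and lists were chosen with earlier results of these data known. Alternatives were 2 other pseudocounts, 2 filters, 2 scalings, nuclear genes, 6-library fits, a constant prior variance, a replicate block, a 2-fold limit, leaving out each library, and limma-voom on recovered reads, the last added after seeing the data. Same-numbered libraries did not deviate together (correlations -0.244 to 0.359).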

Additional observations from a re-analysis of the deposited data

How the results depend on the processing

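The 10 genes kept their counts of calls against Col (9 in T31A, 9 in efs, none higher) under both pseudocounts, both filters, both scalings, nuclear genes, the constant prior variance and voom on recovered reads, which was chosen after seeing the data; the exceptions were the 2-fold limit and, in K36A, MAM3. Limits: 3 libraries a genotype, unstated origin of replicates and unstated counting of shared reads bound every value.

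With a 2-fold limit, members lower than Col were 5 in T31A and 5 in K36A, members higher than efs were 2 in T31A and 2 in K36A, and none (0) was higher in T31A than K36A. All genes called were then 401 in T31A, 405 in K36A and 1197 in efs against Col, 476 for T31A minus K36A, 934 for T31A minus efs and 838 for K36A minus efs, from 5347, 6296, 9746, 5643, 7822 and 7472. With a pseudocount of 5 the members' median was -1.39 for efs minus Col and 0.68 for K36A minus efs. With median-of-ratios factors it was -1.08 in K36A and -1.69 in efs against Col. The shift in the all-gene median from the other scalings was under 0.1 in each contrast. Among genes called between T31A and K36A, 36.2% were higher in T31A, and 46.8% or 50.3% after median-of-ratios or quantile scaling. With the 6 libraries of 2 genotypes, 4137 genes were called for K36A minus Col and 2 members were lower in T31A than K36A. That count of members lay near the 18% of all genes called lower there in the fit on 12 libraries. The cause of these shifts was not tested.

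With 1 library left out, members higher in T31A than K36A ran from 0 to 1, members lower in K36A than Col from 9 to 10, and members higher in K36A than efs from 8 to 9. Signs turned for differences near 0. MYB29, T31A minus K36A, was 0.03 and 0.02 under median-of-ratios and quantile scaling, and ran from -0.09 to 0.06 with 1 library left out. SOT17, T31A minus K36A, was 0.01 and 0.00 under those scalings and ran from -0.08 to 0.01 with 1 library left out. MAM3, T31A minus Col, ran from -0.04 (without T31A replicate 1) to 0.19 (without Col replicate 1).

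With the replicate number as a block the members' medians were -1.08, -0.98 and -1.59 and members lower were 9, 10 and 9; the numbers do not pair the libraries.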
